A study of Mus musculus with 12 samples.

Results

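PPARg, the nuclear receptor encoded by Pparg, and 9 genes of fatty acid uptake and handling were followed in RNA from sorted tumor-associated macrophages (TAMs). The 10 genes were taken by name, for their place in the pathway, from the 55401 genes of the deposited tables, and each symbol matched 1 row. They comprise the receptor (Pparg), a fatty acid translocase (Cd36), lipases that act outside the cell with a lipase inhibitor (Lpl, Lipg, Angptl4), intracellular carriers (Fabp4, Fabp5), an acyl-CoA synthetase (Acsl1), a lipid droplet coat protein (Plin2) and a lysosomal lipase (Lipa). In TAMs labelled AMPK-KO, Pparg, Acsl1 and Lipg rose while Cd36, Fabp4, Fabp5, Lpl, Plin2, Lipa and Angptl4 fell. From day 8 to day 15 of tumor growth, Pparg, Acsl1 and Lipg rose and Cd36, Fabp5 and Plin2 fell, whereas Fabp4, Lpl, Lipa and Angptl4 did not pass the test.

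RNA-seq was performed on TAMs from subcutaneous tumors of B16-F10, a mouse melanoma line, with 12 samples in 4 groups of 3. The AMPK-KO group came from AMPKfl/flLyz2cre/cre mice and the WT group from AMPKfl/fl mice, both at day 15. The other groups were wild-type mice at day 8 (early-stage) and at day 15 (late-stage). The shared strain background was C57BL/6, no sample was treated, and the mice used were 5 weeks of age. Cre is expressed from the Lyz2 (LysM) locus, which is active across the myeloid lineage, so the deletion was not limited to macrophages. The methods give the gate of TAMs as CD45+, CD11b+, F4/80+, Ly6C- and Ly6G-, while supplementary legends of the study write Ly6C+, so whether Ly6C+ cells were kept out is not settled. For replicates 2 and 3 of the AMPK-KO group the genotype field reads Lyz3 and Lyz4 at the Cre locus, where the titles read Lyz2. No source says whether the 3 samples of a group came from separate animals, so p-values measure the spread between samples, which may be technical.

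The libraries held between 71019494 and 84470374 counts. Levels are given in CPM, counts relative to the library total after scaling by the TMM method. Prkaa1, which encodes the AMPKa1 subunit, stood at 68.8, 62.8 and 63.3 CPM in WT and at 47, 40.9 and 40.8 CPM in AMPK-KO samples (log2 fold change -0.60, edgeR adjusted p = 2.3e-04). The AMPK-KO level was thus 0.66 times that of WT, and these counts over the whole gene do not by themselves show a loss of the subunit. Lyz2 stood between 9.16 and 13.5 CPM in all 6 WT and AMPK-KO samples, but between 1092 and 3009 CPM in all 6 early- and late-stage samples. The Cre insertion disrupts Lyz2, yet the WT samples did not stand above the AMPK-KO samples (log2 fold change 0.07, 95% interval from -0.33 to 0.47). The WT samples thus held Lyz2 at the level of the Cre group, far below the 1092 to 1129 CPM of late-stage samples, also from day 15. The Lyz2 level therefore does not bear out the label of the WT samples as free of the Cre allele. Whether they carried it was not tested. This doubt applies to each comparison of AMPK-KO with WT. Summed levels of 4 Y-linked genes were 128 to 153 CPM in WT and AMPK-KO samples, 41.5 to 48.8 CPM in early-stage samples and 0 to 0.05 CPM in late-stage samples, although the methods name female mice. Sex and day therefore cannot be told apart in the comparison of stages. Early-stage replicate 3 stood apart from its group, with a chi-square per degree of freedom of 133 and 60.4 against the other 2 samples, compared with 9.76 to 40.9 for all other pairs of replicates. In bulk RNA, fewer cells of a type and less RNA per cell cannot be told apart.

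PPARg is a ligand-activated transcription factor that binds DNA together with a retinoid X receptor, and fatty acids and their derivatives are among its ligands. In macrophages it is known for driving genes of lipid uptake and storage, among them Cd36, Fabp4, Plin2 and Angptl4. Fatty acids reach the cell after lipases such as LPL release them from lipoproteins, pass the membrane with the help of CD36, are carried by FABP proteins, and are activated to acyl-CoA by ACSL1 before storage in lipid droplets coated by perilipin 2. Lipoproteins that are taken up whole are broken down in lysosomes by the acid lipase LIPA.

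The site that PPARg and its partner bind is built from the hexamer AGGTCA, and the sequences upstream of the genes were searched for it because 6 of the 10 members changed in the same direction in both comparisons. RefSeq promoter sequences on GRCm38.p6 were matched by symbol for 5 members (Acsl1, Cd36, Lipa, Plin2 and Pparg, with 8 windows of 250 bases before a transcription start). The hexamer or its reverse complement TGACCT was found in 4 of the 8 windows, those of Cd36 and Plin2 and 2 of the 3 of Pparg, and in 14% of all 32851 windows of the same length. These 2 windows of Pparg lie with 193 and 250 bases inside the annotated gene, of which 193 and 57 are in exons. The full direct repeat AGGTCANAGGTCA, searched on both strands, was in none of the 8 member windows and in 0.0335% of all windows. At that share its absence from 8 windows was near certain beforehand, and it says nothing about PPARg sites of the members. Every match of the repeat also holds the hexamer. The windows of the uptake gene Cd36 and of the droplet gene Plin2, which both fell in both comparisons, are shown 5′ to 3′ with the hexamer in capitals. The Cd36 window is chr5:17835897-17836146 on the minus strand, lies inside the Cd36 gene of GENCODE M21 without touching an exon, and holds the hexamer 228 bases before the start. The Plin2 window is chr4:86670060-86670309 on the minus strand, reaches 1 base into the first exon, and holds it 218 bases before the start. A match describes letters in a window, and binding was not measured. Of the 6 members that changed alike, Fabp5 and Lipg had no window, and the windows of Acsl1 did not hold the hexamer. Whether the hexamer goes with the shared direction was therefore not tested.
Cd36: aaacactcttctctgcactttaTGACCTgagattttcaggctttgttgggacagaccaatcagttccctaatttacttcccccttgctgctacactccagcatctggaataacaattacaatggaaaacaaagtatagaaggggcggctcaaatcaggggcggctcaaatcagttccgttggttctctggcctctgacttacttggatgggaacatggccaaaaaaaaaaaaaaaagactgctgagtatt
Plin2: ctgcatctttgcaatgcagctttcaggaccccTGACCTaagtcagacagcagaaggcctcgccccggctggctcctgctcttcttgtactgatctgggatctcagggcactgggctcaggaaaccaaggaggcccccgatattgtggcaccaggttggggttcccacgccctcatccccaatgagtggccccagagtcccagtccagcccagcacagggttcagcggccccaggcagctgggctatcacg

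The members covered a wide range of levels. Per kilobase of the principal transcript, WT TAMs held Plin2 at 595 ± 18.3 CPM per kilobase (SD, n = 3), Fabp5 at 409 ± 38.1 and Lpl at 173, followed by Lipa at 142 and Cd36 at 138. Fabp4 (28.2), Pparg (23.3), Acsl1 (15), Angptl4 (6.51) and Lipg (3.58 CPM per kilobase) were lower, and no neighbours in this order overlapped in range among the WT samples. The order differed by group. In AMPK-KO samples Fabp4 dropped from the sixth place to 10.2 CPM per kilobase, level with Lipg at 10.6, whose range it overlapped, and only Angptl4 (4.17) was lower. In early-stage samples Fabp5 (556) and Plin2 (543) overlapped, as did Cd36 (179) with Lipa (172) and Fabp4 (32.6) with Pparg (31.3). In late-stage samples Plin2 (432) led, Lpl (285) and Fabp5 (282) overlapped, and Lipg at 26.4 CPM per kilobase had reached the range of Acsl1 at 27.7. The choice of length matters for the order. With the union of all annotated exons, Cd36 took the second place in WT samples at 131 CPM per kilobase, and Fabp4 stood at 5.63.

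**Figure D1:**
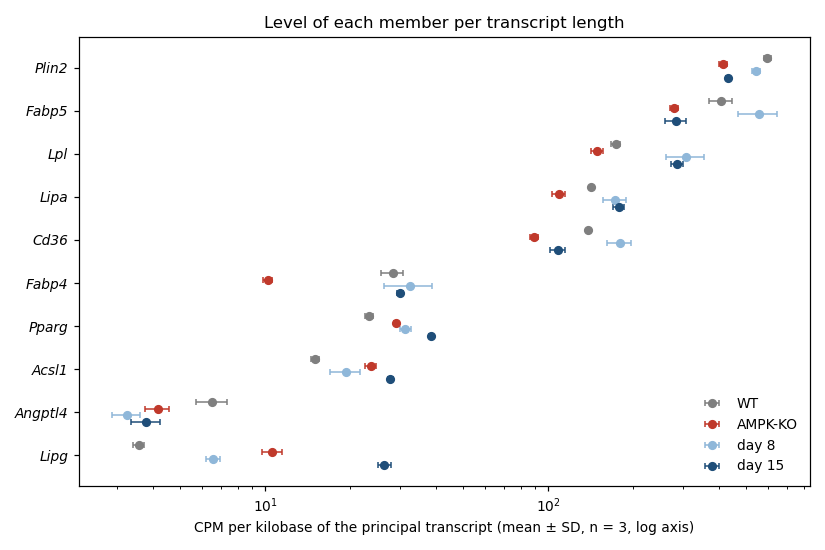
Level of each member in CPM per kilobase of its principal transcript on a log axis, as the mean (point) and SD (bar) of the 3 samples of each group. Plin2, Fabp5 and Lpl lie at the top in every group, and Lipg moves from 3.58 in WT to 10.6 in AMPK-KO and from 6.54 at day 8 to 26.4 at day 15.

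The comparison of AMPK-KO with WT asks how the loss of AMPK in myeloid cells affects the TAM transcriptome. All 10 members were called at an adjusted p under 0.05 by the quasi-likelihood test of edgeR, 3 higher and 7 lower, where 21.1% of the 17532 genes tested were called (11.3% higher and 9.78% lower). In all 10 the range of the AMPK-KO samples did not overlap that of the WT samples, which held for 37.2% of all genes tested. The median log2 fold change of the members was -0.45, against -0.00 for all genes tested. Summed over the 10 genes, the level was 3206 to 3349 CPM in WT samples and 2470 to 2527 CPM in AMPK-KO samples. Only Lipg and Fabp4 were called with a change of more than 1 on the log2 scale, which held for 3.34% of all genes tested.

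**Figure D2:**
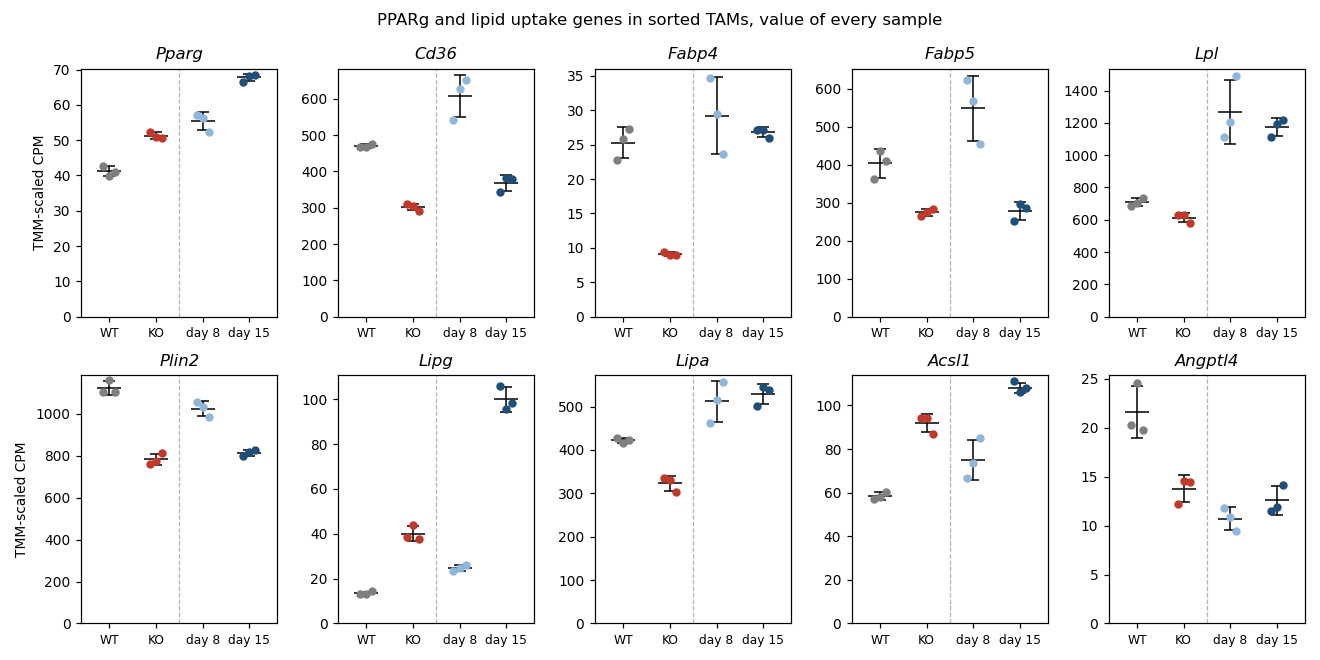
TMM-scaled CPM of each member in every sample (points) with the mean and SD of each group of 3 (lines), on axes that start at 0, with AMPK-KO and WT to the left of the dashed line and day 8 and day 15 to its right. The groups of AMPK-KO and WT samples are separate for all 10 genes, and those of day 8 and day 15 for 6.

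Pparg (ENSMUSG00000000440.12, chr6:115360951-115490399 on GRCm38, plus strand) was measured at 42.6, 39.8 and 41.1 CPM in WT samples and at 52.3, 50.9 and 50.6 CPM in AMPK-KO samples. Each AMPK-KO sample was above each WT sample, and the rise was 1.25-fold (log2 fold change 0.32, SE 0.06, adjusted p = 0.00319). Its DNA-binding partner Rxra fell by 0.26 on the log2 scale, from 109.5 ± 0.82 to 91.8 ± 1.82 CPM (adjusted p = 0.00378). The related receptor gene Ppard was at 44.3 CPM in WT and 45.8 CPM in AMPK-KO samples, with a 95% interval of the log2 fold change from -0.10 to 0.20.

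Cd36 (ENSMUSG00000002944.15, chr5:17781690-17888801, minus strand), which encodes the scavenger receptor that takes up long-chain fatty acids and oxidized lipoprotein, stood at 468, 467 and 475 CPM in WT samples. In AMPK-KO samples it stood at 309, 306 and 291 CPM. The 3 AMPK-KO samples lay well below the WT samples, a fall of 1.56-fold (log2 fold change -0.64, SE 0.04, adjusted p = 4.3e-06). Msr1, another scavenger receptor gene of macrophages, fell by 0.24 on the log2 scale, from 519 ± 7.11 to 439.7 ± 10.6 CPM (adjusted p = 0.00229). The ratio of Cd36 to Msr1 counts was 0.906 ± 0.00373 in WT and 0.687 ± 0.00655 in AMPK-KO samples (SD, n = 3).

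The lipase genes moved apart. Lpl (ENSMUSG00000015568.16, chr8:68880491-68907448, plus strand), encoding lipoprotein lipase, was at 688, 705 and 737 CPM in WT samples and at 628, 627 and 579 CPM in AMPK-KO samples. This was the smallest change of the members (log2 fold change -0.22, SE 0.05, adjusted p = 0.00955), and without WT replicate 3 it no longer passed the test (log2 fold change -0.19, adjusted p = 0.0537). Lipg (ENSMUSG00000053846.5, chromosome 18), which encodes endothelial lipase, a phospholipase of the same family, was at 13.2, 13.2 and 14.3 CPM in WT samples. It reached 38.6, 44 and 37.8 CPM in AMPK-KO samples. All AMPK-KO samples exceeded all WT samples by a wide margin, a 2.96-fold rise (log2 fold change 1.56, SE 0.09, adjusted p = 1.0e-06). The ratio of Lpl to Lipg counts accordingly was 52.4 ± 1 in WT and 15.3 ± 0.995 in AMPK-KO samples. Angptl4 (ENSMUSG00000002289.16, chr17:33773750-33781830, minus strand), encoding a secreted inhibitor of LPL, was at 20.3, 24.6 and 19.8 CPM in WT and at 12.2, 14.6 and 14.5 CPM in AMPK-KO samples. It fell 1.56-fold (log2 fold change -0.64, SE 0.11, adjusted p = 0.00261), with the highest AMPK-KO sample still under the lowest WT sample.

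Of the carriers, Fabp4 (ENSMUSG00000062515.3, chr3:10204088-10208576, minus strand), the fatty acid-binding protein shared by adipocytes and macrophages, was at 22.8, 25.8 and 27.3 CPM in WT samples. It was at 9.46, 8.95 and 8.93 CPM in AMPK-KO samples. No other member fell as far (2.78-fold, log2 fold change -1.47, SE 0.10, adjusted p = 3.3e-06). Fabp5 (ENSMUSG00000027533.10, chr3:10012548-10016607, plus strand) encodes the related epidermal carrier, which macrophages also hold. It fell from 363, 437 and 410.3 CPM to 266, 276 and 283 CPM (log2 fold change -0.55, SE 0.07, adjusted p = 2.0e-04). Since Fabp4 fell further, the ratio of Fabp5 to Fabp4 counts was 16 ± 0.956 in WT and 30.2 ± 1.88 in AMPK-KO samples. The processed pseudogene Fabp5l2 held at most 5 counts in any of these samples.

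Acsl1 (ENSMUSG00000018796.13, chr8:46471037-46536051, plus strand), whose product joins fatty acids to coenzyme A, was at 56.9, 57.8 and 60.5 CPM in WT and at 94.3, 94.4 and 87.1 CPM in AMPK-KO samples. It rose 1.57-fold (log2 fold change 0.65, SE 0.06, adjusted p = 2.5e-05). Acsl1 shares 1039 exon bases with the opposite-strand transcript Gm45244, which was counted at most 69 times. Plin2 (ENSMUSG00000028494.12, chr4:86648386-86670060, minus strand), the coat protein of lipid droplets in macrophages, fell from 1104, 1163 and 1103 CPM to 761, 774 and 814 CPM. Every AMPK-KO sample lay under every WT sample (log2 fold change -0.52, SE 0.04, adjusted p = 1.8e-05). Lipa (ENSMUSG00000024781.16, chr19:34492318-34527474, minus strand), the lysosomal acid lipase, fell from 427, 415 and 423 CPM to 335, 331 and 304 CPM (log2 fold change -0.38, SE 0.05, adjusted p = 3.2e-04).

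The comparison of late-stage with early-stage samples asks how TAMs change as the tumor grows. Of the members, 3 were called higher and 3 lower, where 9.18% of the 17630 genes tested were called (4.31% higher and 4.88% lower). For the 6 genes called, the ranges of early- and late-stage samples did not overlap, as was the case for 31.2% of all genes tested. For the other 4 they overlapped. The median log2 fold change of the members was -0.03, against 0.00 for all genes tested, and the summed level was 3993 to 4337 CPM in early-stage and 3329 to 3564 CPM in late-stage samples. Lipg alone was called with a change of more than 1 on the log2 scale, which held for 1.87% of all genes tested. Leaving out early-stage replicate 3, the sample that stood apart, gave the same counts of 3 higher and 3 lower.

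Pparg was at 57.1, 56.3 and 52.3 CPM in early-stage samples and at 66.6, 68.3 and 68.5 CPM in late-stage samples. The late-stage samples lay close together above all early-stage samples (log2 fold change 0.30, SE 0.07, adjusted p = 0.0338). This call was lost in 6 of 12 alternatives, with adjusted p-values up to 0.15, among them leaving out early-stage replicate 2 (0.115) or any late-stage replicate (0.0983, 0.15 and 0.142 for replicates 1, 2 and 3), while the log2 fold change stayed between 0.26 and 0.32. Rxra was at 106 CPM in early-stage and 100.1 CPM in late-stage samples, with a 95% interval of the log2 fold change from -0.26 to 0.08.

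Cd36 was at 541, 627 and 652 CPM in early-stage samples and at 343, 383 and 378 CPM in late-stage samples. It fell 1.65-fold (log2 fold change -0.72, SE 0.09, adjusted p = 8.8e-04), with every late-stage sample far below the lowest early-stage one. The ratio of Cd36 to Msr1 counts was 0.977 ± 0.0359 at day 8 and 0.759 ± 0.0258 at day 15.

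Lipg was at 23.3, 24.8 and 26.1 CPM in early-stage samples and at 106, 95.6 and 98.2 CPM in late-stage samples. It rose 4.04-fold (log2 fold change 2.01, SE 0.08, adjusted p = 2.1e-06), by more than any other member. Lpl was at 1113, 1203 and 1491 CPM in early-stage samples and at 1110, 1195 and 1217 CPM in late-stage samples. The highest Lpl value belonged to early-stage replicate 3, and the groups overlapped (log2 fold change -0.11, 95% interval from -0.34 to 0.12, adjusted p = 0.563). The ratio of Lpl to Lipg counts was 51.1 ± 5.15 at day 8 and 11.8 ± 1.15 at day 15. Angptl4 was at 11.8, 10.9 and 9.42 CPM in early-stage samples and at 11.5, 11.9 and 14.2 CPM in late-stage samples, and these groups also overlapped (log2 fold change 0.23, 95% interval from -0.07 to 0.53, adjusted p = 0.332).

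Fabp5 fell from 624, 567 and 455 CPM to 253, 298 and 285 CPM, the largest fall of the members between the stages. Early-stage replicate 3 was the lowest of its group but still above every late-stage sample (1.97-fold, log2 fold change -0.98, SE 0.12, adjusted p = 8.1e-04). Fabp4 was at 34.7, 29.4 and 23.6 CPM in early-stage samples, and the late-stage values of 27.2, 27.1 and 26 CPM lay inside this range (log2 fold change -0.13, 95% interval from -0.43 to 0.17, adjusted p = 0.615). The ratio of Fabp5 to Fabp4 counts was 18.9 ± 0.784 at day 8 and 10.4 ± 0.994 at day 15.

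Acsl1 rose from 66.7, 73.5 and 84.9 CPM to 111, 106 and 108 CPM (log2 fold change 0.53, SE 0.09, adjusted p = 0.00739), and without early-stage replicate 2 its adjusted p was 0.0576. Plin2 fell from 1058, 1032 and 986 CPM to 800.0, 816 and 829.9 CPM (log2 fold change -0.33, SE 0.06, adjusted p = 0.0109). The call for Plin2 was lost without early-stage replicate 2 (adjusted p = 0.0536) and without late-stage replicate 1, 2 or 3 (0.0531, 0.0773 and 0.0609), with log2 fold changes from -0.34 to -0.32. Lipa was at 463, 516 and 557 CPM in early-stage samples and at 502, 545 and 539 CPM in late-stage samples, which overlapped (log2 fold change 0.05, 95% interval from -0.14 to 0.23, adjusted p = 0.783).

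Both comparisons were then set side by side. They share no samples and were normalised in separate tables. Of the 10 members, 6 were called in both, all in the same direction, with Pparg, Lipg and Acsl1 higher and Cd36, Fabp5 and Plin2 lower. Over the 16812 genes tested in both, 2.71% were called in the same direction and 2.18% in opposite directions, and 53.5% had the same sign regardless of any call, as 8 members did. The Fabp5 to Fabp4 ratio moved in opposite directions, up in AMPK-KO and down in late-stage samples, as Fabp4 was the gene that changed most among the lower members in one comparison and did not pass the test in the other. Whether a member's change differed between the 2 comparisons was not tested.

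**Figure D3:**
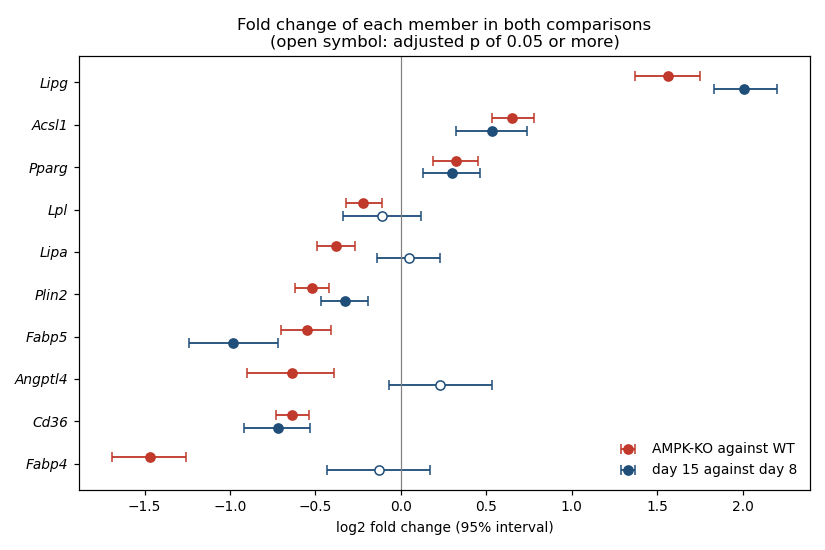
Log2 fold change of each member with its 95% interval in AMPK-KO against WT (red) and in day 15 against day 8 (blue), with open symbols for an adjusted p of 0.05 or more. Lipg, Acsl1 and Pparg lie to the right of 0 and Plin2, Fabp5 and Cd36 to the left in both, while Fabp4 lies at -1.47 in the first and at -0.13 in the second.

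Other genes of the pathway were read from 6 lists that hold 99 genes. In AMPK-KO against WT, 79 were tested, 17 were higher and 10 lower, and 52 did not pass. These were 21.5% higher and 12.7% lower, against 11.3% and 9.78% of all genes tested. The latter shares are also those to set beside the counts of each list. Of the 12 PPAR receptors and partners tested, none was higher and 2 were lower, Rxra and the coactivator gene Ppargc1a (3.25 ± 0.547 CPM in WT and 1.82 ± 0.363 CPM in AMPK-KO samples, adjusted p = 0.0225). The call for Ppargc1a was lost without WT replicate 3 (adjusted p = 0.103), AMPK-KO replicate 2 (0.0522) or AMPK-KO replicate 3 (0.068). Of the 14 genes of fatty acid uptake and activation tested, 5 were higher and 3 lower. The fatty acid transport protein genes Slc27a1 and Slc27a3 changed in opposite directions, with Slc27a1 falling from 194 ± 8.95 to 134 ± 2.15 CPM (adjusted p = 4.5e-05) and Slc27a3 rising from 2.84 ± 0.437 to 5.67 ± 0.252 CPM (adjusted p = 0.00139). The other genes called in this list, named after their values were seen, were the synthetase genes Acsl4 (log2 fold change 0.29) and Acsl5 (0.28) and the scavenger receptor genes Olr1 (0.94) and Scarb1 (0.23), which rose, and the carrier gene Fabp3 (-1.47), which fell from 2.56 ± 0.475 to 0.921 ± 0.362 CPM (adjusted p = 0.00917). Acsl4, Olr1 and Scarb1 lost their calls without WT replicate 3, among other single samples, with adjusted p-values up to 0.0878, 0.0791 and 0.0645.

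Of the 12 lipase regulators and lipoprotein receptors tested, 2 rose and none fell. Among them was the proprotein convertase gene Pcsk5 (log2 fold change 1.38, adjusted p = 0.0313), which stood at 0.52 and 1.36 CPM and lost its call in 5 of 12 alternatives, with adjusted p-values up to 0.0926. These alternatives were without WT replicate 3, without each AMPK-KO replicate and without the filter on low counts. Of the 12 lipid droplet genes tested, 5 rose and 2 fell. Genes of triglyceride synthesis and breakdown were among the former, with Dgat2, a triglyceride synthase, at 3.33 ± 0.336 CPM in WT and 5.65 ± 0.198 CPM in AMPK-KO samples (adjusted p = 0.00375) and Lipe, hormone-sensitive lipase, at 21.6 ± 1.43 and 33.6 ± 1.55 CPM (adjusted p = 2.6e-04). Hilpda, which encodes a small droplet protein that inhibits triglyceride breakdown, fell with Plin2 (from 148 ± 16.6 to 112 ± 4.28 CPM, adjusted p = 0.00374). Named after their values were seen, the triglyceride synthase gene Dgat1 (log2 fold change 0.40), the triglyceride lipase gene Pnpla2 (0.22) and the gene of its inhibitor, G0s2 (1.66, from 0.449 ± 0.174 to 1.42 ± 0.349 CPM), also rose, and the droplet coat gene Plin3 (-0.30) fell. Calls were lost on leaving out single samples for Dgat1 (adjusted p = 0.0577 without WT replicate 3), G0s2 (0.0616 without AMPK-KO replicate 2) and Pnpla2 (up to 0.0858, without WT replicate 3 or AMPK-KO replicate 1 or 2). Over all 12 alternatives their log2 fold changes stayed at 0.30 to 0.48, 1.42 to 2.00 and 0.19 to 0.24.

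Of the 15 genes of lysosomal lipid handling, 3 rose and 1 fell. Psap (log2 fold change 0.19, adjusted p = 0.00453) and Asah1 (0.21, adjusted p = 0.00552), of sphingolipid breakdown, rose while Lipa fell, and the membrane protein gene Lamp1 fell (-0.26, adjusted p = 6.8e-04). The third gene that rose, the cholesterol carrier gene Npc2, lost its call in 5 of 12 alternatives. Of the 14 other PPAR targets tested, 2 rose and 2 fell. Glycerol kinase (Gk) rose from 54.3 ± 2.8 to 98.2 ± 7.57 CPM (adjusted p = 1.5e-05), the uncoupling protein gene Ucp2 rose from 1161 ± 34.6 to 1382 ± 28 CPM (adjusted p = 0.00126), and the acyl-CoA thioesterase gene Acot1 fell from 5.15 ± 0.458 to 2.85 ± 0.603 CPM (adjusted p = 0.00833). The median log2 fold change was between -0.18 and 0.06 in each of the 6 lists.

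**Figure D4:**
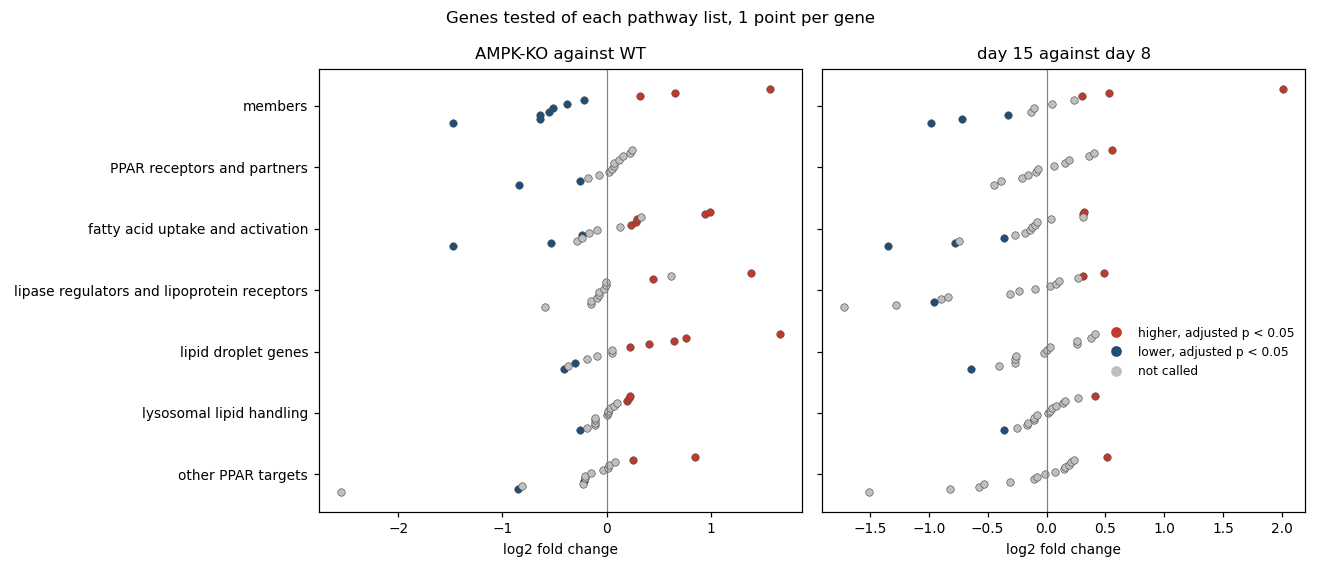
Log2 fold change of every tested gene of the members and of the 6 pathway lists (1 point per gene) in AMPK-KO against WT (left) and in day 15 against day 8 (right), colored red for higher, blue for lower and grey for an adjusted p of 0.05 or more. Every list holds genes on both sides of 0, and all 10 members carry a call on the left and 6 on the right.

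In late-stage against early-stage samples, 82 of the 99 genes were tested, 7 were higher, 6 lower and 69 did not pass. These were 8.54% higher and 7.32% lower, against 4.31% and 4.88% of all genes tested. Of the 12 PPAR receptors and partners tested, 1 rose and none fell. Of the uptake genes 2 rose and 3 fell. The acyl-CoA synthetase gene Acsl5 rose from 164 ± 3.15 to 205 ± 5.19 CPM (adjusted p = 0.0141), the caveolin gene Cav1 fell from 13.3 ± 2.5 to 7.71 ± 1.4 CPM (adjusted p = 0.0252), and the carrier gene Fabp7 fell from 1.8 ± 0.219 to 0.705 ± 0.227 CPM (adjusted p = 0.0294). All of these 3 lost their calls without some single replicates, with adjusted p-values up to 0.0945 for Acsl5, 0.1 for Cav1 and 0.107 for Fabp7, in each case also without early-stage replicate 2 and late-stage replicate 1. Of the lipase regulators and receptors 2 rose and 1 fell. Apoc2, the cofactor of LPL, fell from 16.2 ± 2.72 to 8.33 ± 0.308 CPM (adjusted p = 0.00273), and Lmf2, of the lipase maturation factor family, rose from 71.5 ± 6.71 to 101 ± 1.79 CPM (adjusted p = 0.00559). The lipoprotein receptor gene Lrp1 rose from 1577 ± 151 to 1961 ± 97.8 CPM (adjusted p = 0.042), a call lost in 7 of 12 alternatives with adjusted p-values up to 0.166, among them without early-stage replicate 3 and without each late-stage replicate.

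Of the 12 lipid droplet genes tested, Mgll, the monoglyceride lipase gene, was the only one called (from 66.1 ± 6.45 to 42.4 ± 10.5 CPM, adjusted p = 0.0404), and it lost the call in 6 of 12 alternatives (adjusted p up to 0.122), among them without early-stage replicate 2 or 3 and without each late-stage replicate. Of the lysosomal genes, the phospholipase gene Pla2g15 rose from 167 ± 11.5 to 222 ± 2.1 CPM (adjusted p = 0.00713) and the galactosidase gene Gla fell from 157 ± 13.6 to 123 ± 3.12 CPM (adjusted p = 0.022). Both lost their calls without early-stage replicate 2 and without late-stage replicate 3, and Gla also without late-stage replicate 1 or 2, with adjusted p-values up to 0.0514 for Pla2g15 and 0.116 for Gla. Among the other PPAR targets Gk was the only gene called, rising from 76 ± 4.35 to 108 ± 4.14 CPM (adjusted p = 0.00283). Gk and the uptake genes Acsl5, Msr1 and Scarb1 were called in the same direction in both comparisons. Acsl5 rose in AMPK-KO TAMs by 0.28 on the log2 scale (adjusted p = 0.00266), and Scarb1, the HDL receptor gene, by 0.23 there (adjusted p = 0.0124) and by 0.31 between the stages (adjusted p = 0.03). Msr1 fell by 0.36 between the stages (adjusted p = 0.0336). The calls of Msr1 and Scarb1 between the stages were lost without early-stage replicate 2 or any late-stage replicate, with adjusted p-values up to 0.132 and 0.145. These genes were set side by side after their values in both comparisons were seen.

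Markers of other cells that the gate could hold were read as summed levels. The 10 macrophage markers stood at 13940 to 15156 CPM in WT, 13578 to 13793 CPM in AMPK-KO, 10691 to 12741 CPM in early-stage and 13176 to 13282 CPM in late-stage samples. Single markers within these sums moved apart. In AMPK-KO samples Itgam (log2 fold change 0.55) and Csf1r (0.14) were higher, and Cd68 (-0.55) and Mrc1 (-0.51) were lower. Between the stages C1qa was higher (0.49) and Mrc1 lower (-0.62), and the other macrophage markers did not pass the test. Adipocytes express many of the members, but the 8 adipocyte markers summed to at most 0.54 CPM in any sample, Lep was at 0 in all 12, and none reached the level needed for the test. Of the 8 melanoma markers 7 were lower in AMPK-KO samples, with sums of 960.3 to 965 CPM in WT and 642 to 674 CPM in AMPK-KO, and 6 were lower in late-stage samples, with sums of 1620 to 1750 CPM at day 8 and 731 to 1187 CPM at day 15. These markers thus moved in the direction of Cd36, Fabp5 and Plin2 in both comparisons, and their part in those results was not tested.

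Summed endothelial markers, of cells that are known for Lipg, were 60.0 to 70.9 CPM in WT and 126 to 130.4 CPM in AMPK-KO samples, with 2 of 8 tested higher and 1 lower, and they were 103 to 104 CPM at day 8 and 88.6 to 94.9 CPM at day 15, where Lipg also rose. The higher sum in AMPK-KO samples came from Pecam1 (37.5 CPM in WT and 91.2 CPM in AMPK-KO) and Kdr (12.5 and 24.4 CPM). Cdh5 was lower there (3.74 and 2.53 CPM) and the other 5 genes tested did not pass, so the sum rose but the genes of the list did not rise together. The part of endothelial cells in the Lipg values was not tested. The monocyte list went up in AMPK-KO (515 to 546 CPM against 835 to 863 CPM, 3 of 6 higher) and down in late-stage samples (562 to 674 CPM against 228 to 259 CPM, 5 of 6 lower). Fibroblast markers (575 to 621 CPM against 747 to 829 CPM, and 811 to 884 CPM against 397 to 561 CPM between the stages) did likewise, with 6 of 7 higher and 3 of 7 lower. The sums of T and NK cell markers were 97.9 to 115 CPM in WT and 189 to 197 CPM in AMPK-KO samples, and those of dendritic cells 81.3 to 92.3 CPM and 125 to 132 CPM, while between the stages the sums of both lists overlapped. Within the overlapping sums of T and NK cell markers, the T cell genes Cd8a, Trac and Trbc2 were higher at day 15 and Ncr1, Klrb1c and Gzma, genes of NK and cytotoxic cells, were lower, and of the dendritic markers Ccr7 was higher and Cd209a lower. Neutrophil markers, of which Ly6g was at 0 in the WT and AMPK-KO samples, went from 111 to 119 CPM to 183 to 185 CPM in AMPK-KO samples and from 121 to 128 CPM to 104 to 109 CPM with stage. Of 6 tested 4 were higher in AMPK-KO, and of 5 tested 2 were lower at day 15. Most of each sum was Csf3r, at 96.5 CPM in WT, 154 in AMPK-KO, 76.9 at day 8 and 69.7 at day 15. S100a8 and S100a9 were low but higher in AMPK-KO samples (2.1 and 2.47 CPM) than in WT (1.05 and 0.697 CPM). Both were lower at day 15 (0.331 and 0.143 CPM) than at day 8 (2.28 and 0.722 CPM). Markers of alveolar-type macrophages, which depend on PPARg in the lung, had a median sum of 96.6 CPM in WT, 76.5 CPM in AMPK-KO, 64.4 CPM in early-stage and 20.1 CPM in late-stage samples, without overlap between the groups of either comparison and with Krt79 at 0 throughout. The lower sum in AMPK-KO samples came from Marco alone (64.9 CPM in WT and 17.9 CPM in AMPK-KO, log2 fold change -1.86), since Siglecf (1.85) and Ear2 (1.51) were higher there and the median of the 5 genes tested was 1.51. Between the stages Marco, Chil3 and Ear2 were lower. The part of these cells in the members' values was not tested.

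**Figure D5:**
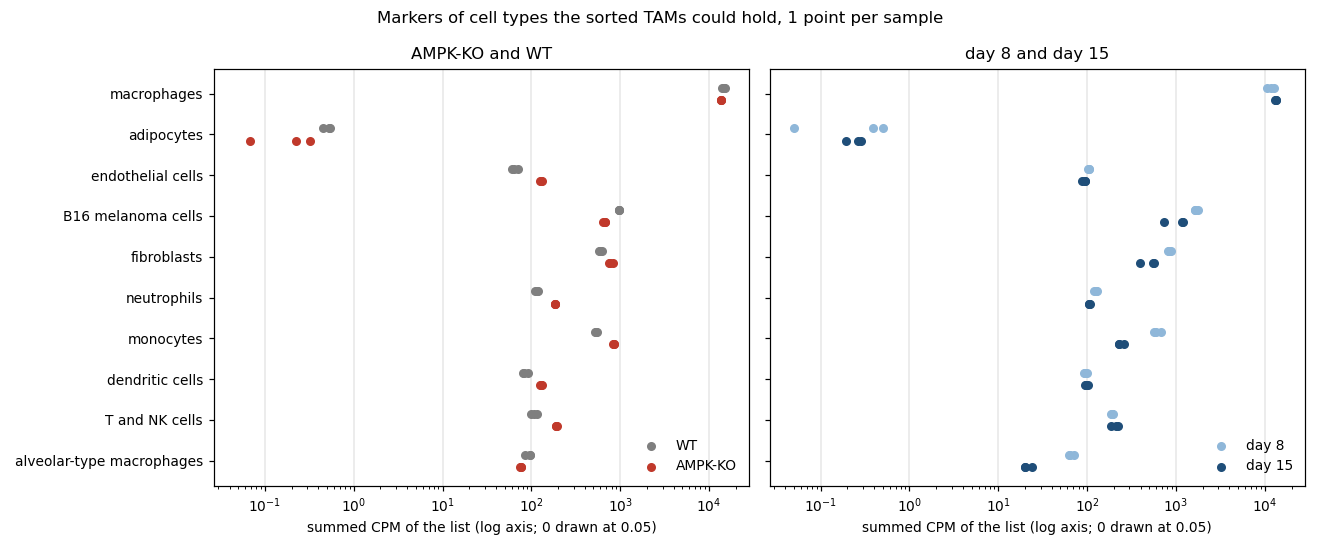
Summed TMM-scaled CPM of each marker list in every sample on a log axis, with WT and AMPK-KO samples on the left and day 8 and day 15 samples on the right. The adipocyte sums lie at or under 0.54 in all 12 samples, and the melanoma sums are lower in AMPK-KO than in WT samples and lower at day 15 than at day 8.

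The genes most like Pparg were those with the highest smaller Pearson correlation of log2 CPM with Pparg over the 6 samples of each table, among genes with a mean of at least 10 CPM in both. Among the 5 highest were Prex1 (r = 0.991 over the WT and AMPK-KO samples and 0.983 over the stages), Coro7 (0.98 and 0.982), Daglb (0.979 and 0.993) and Fyn (0.977 and 0.983). These correlations describe 6 points that form separate groups, so that any gene with a shift between the groups correlates. These genes rose in both comparisons, Prex1 by 0.52 and 0.44 and Daglb by 0.32 and 0.53 on the log2 scale. None was another member of the lipid uptake genes.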

How the data were processed

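TAMs were sorted by flow cytometry from B16-F10 tumors and sequenced as bulk RNA (3 samples in each of 4 groups). The authors mapped reads with HISAT2 and deposited raw read counts per gene from featureCounts, in 1 table per comparison, without normalization. The submitters' processing notes also name FastQC and DESeq2. The versions are not given in the sources used here, nor is the handling of strand or of reads that map to several genes, so overlapping or near-identical genes are less certain. The notes name mm10 and GRCm38, the methods GRCh38, and all 10 member identifiers matched GENCODE M21 of GRCm38 with their version. No column was left unused. Of 55401 genes, 27883 (AMPK-KO and WT) and 27545 (stages) had no count.

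Counts were filtered with filterByExpr, scaled by TMM and compared within each table by the quasi-likelihood test of edgeR 4.0.16 (R 4.3.3), without covariates, with Benjamini-Hochberg adjustment over all genes tested. A gene was called at an adjusted p under 0.05. Levels are TMM-scaled CPM, mean ± SD (n = 3). The script was tested on simulated data. The alternatives were DESeq2 1.42.0 (Wald test), RLE and upper-quartile factors, the filter relaxed to 1 count or raised to 10 counts per library, the replicate number as a block, leaving out each replicate, and an absolute log2 fold change above 1. Depth of 71019494 to 84470374 counts leaves the spread between samples, with a biological coefficient of variation of 0.159 and 0.201, as the main limit of precision. Intervals are at 95%.

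Named genes were all members, up to 3 genes of each pathway list and comparison by adjusted p among those called, and the 5 genes most like Pparg. Some genes that this rule covers are not reported here. Members, lists and tests were chosen with earlier results of these data known. Lengths were those of the APPRIS principal transcript or of all exons. Plots used matplotlib 3.10.9, and tables pandas 2.3.3 in Python 3.11.15.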

Additional observations from a re-analysis of the deposited data

How the results depend on the processing

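Of 120 refits of the members in AMPK-KO against WT (12 alternatives each), 119 kept direction and call, and 1 lost the call (Lpl without WT replicate 3). Of 120 in late-stage against early-stage, 106 kept both, 11 lost the call (Pparg, Plin2 and Acsl1), and 3 reversed in genes that were not called. With 1 replicate left out at a time, Fabp4 ranged from -0.26 to 0.02 and Lipa from -0.02 to 0.11 (signs reversed without early-stage replicate 1), and Lpl from -0.20 to 0.02 (reversed without early-stage replicate 3). Requiring an absolute log2 fold change above 1 as well left 1 member higher and 1 lower in AMPK-KO and 1 higher and 0 lower at day 15, and DESeq2 with an unadjusted p under 0.05 and the same fold gave the same counts (1 and 1, 1 and 0). For the pathway lists these rules gave 2 higher and 1 lower (edgeR) and 3 and 2 (DESeq2) in AMPK-KO, and 0 higher and 1 lower (edgeR) and 0 and 1 (DESeq2) at day 15. DESeq2's Wald test called 12 pathway genes higher and 11 lower at day 15, against 7 and 6, and without the filter on low counts 2 were lower. Leaving out 1 replicate at a time gave 3 to 3 members higher and 6 to 7 lower in AMPK-KO, and 1 to 3 higher and 2 to 3 lower at day 15, where the lowest count, 1, came without early-stage replicate 2. It gave 10 to 18 pathway genes higher (10 without WT replicate 3) and 8 to 13 lower in AMPK-KO, and 3 to 14 higher and 1 to 10 lower at day 15, with the highest counts without early-stage replicate 1 and the lowest without late-stage replicate 3 and early-stage replicate 2. Same-numbered samples did not deviate together (correlations from -0.0039 to 0.0423). With 3 samples a group and the noise of single genes, these correlations cannot decide whether the numbers pair samples. With the replicate number as a block, 3862 genes were called in AMPK-KO (3693 without) and 1417 at day 15 (1619 without). All 10 members kept their calls in AMPK-KO under the block, and at day 15 Pparg (log2 fold change 0.30, adjusted p = 0.0664) lost its call, as did Fabp7 (-1.39, adjusted p = 0.0504), Lrp1 (0.32, adjusted p = 0.0544) and Scarb1 (0.32, adjusted p = 0.0559) among the pathway genes called, with no other such loss. The causes were not tested. Under every scaling the median over all genes lay within 0.027 of 0 on the log2 scale. Fabp4's change between the stages had an interval from -0.43 to 0.17, with 3 samples a group. Its SD among early-stage samples was 19.1% of the mean. The size of change that could have been detected was not computed.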

Other observations

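The WT samples of the AMPK comparison and the late-stage samples both came from day 15 and from mice labelled without Cre, but were normalised in separate tables, so their levels are set side by side without a test. Lipg was at 13.2 to 14.3 CPM in the former and 95.6 to 106 CPM in the latter, and Pparg at 39.8 to 42.6 and 66.6 to 68.5 CPM. Lpl was at 688 to 737 and 1110 to 1217 CPM. Plin2 went the other way, with 1103 to 1163 CPM in WT and 800.0 to 829.9 CPM in late-stage samples, as did Cd36 (467 to 475 and 343 to 383 CPM). Fabp4 was at like levels in both, 22.8 to 27.3 and 26 to 27.2 CPM. For Lipg, Pparg and Lpl the gap between these 2 groups was wider than that between AMPK-KO and WT. Both groups also differed in Y-linked genes (128 to 139 and 0 to 0.05 CPM) and in Lyz2 (9.16 to 13.5 and 1092 to 1129 CPM), and the part of these differences in the members' levels was not tested.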
